A study of Rattus norvegicus with 7 samples.

Results

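Mir204 and Mir211 are paralogous miRNA genes, and they were taken by their gene symbols from the deposited small RNA table of the rat retina. Each symbol matched 1 feature, so the group holds 2 of the 571 features annotated as miRNA and 2 of all 5491 features. The retinas came from untreated Wistar WU rats at 7 postnatal ages (P1, P3, P5 and P7 in the first week, then P10, P15 and P21), with birth falling on P0. Each age was a pool of 3 retinal RNA samples, sequenced 2 times by Ion Torrent, and the table gives 1 value per age. No spread between animals could be obtained, so ages were compared by size and counting error, without a test. The unit is FPKM, fragments per kilobase of the feature and per 1000000 mapped fragments, which Cuffdiff calculated. A bulk library cannot tell fewer cells of a type from less RNA per cell.

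A miRNA is cut from a hairpin precursor, and either strand of the stem, named the 5p or the 3p arm, can give the mature form. The bases from 2 to 8 of the mature form are the seed, which pairs with target mRNAs, so miRNAs that share a seed can share targets. Mir204 is known for its role in eye development and, like Mir211, as an abundant miRNA of the retinal pigment epithelium. Mir204 lies within Trpm3 and Mir211 within Trpm1 according to RefSeq (assembly GRCr8). Trpm1 encodes the cation channel of ON bipolar cells and is also expressed in pigment cells, and Trpm3 encodes a related channel. The position of the hairpins relative to the exons was not analysed here, and neither Trpm gene is among the measured features.

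Both genes lie on the forward strand of chromosome 1 in the build of the files, Rnor_6.0. Mir204 (ENSRNOG00000035472.1) runs from 240403000 to 240403109, a hairpin of 110 bases, and Mir211 (ENSRNOG00000035648.1) from 125042119 to 125042224, a hairpin of 106 bases. The mature sequences, from RefSeq (GRCr8), are shown because the paralogs are told apart by them. Both members matched, the sequences read 5′ to 3′, and capitals mark the seed.
rno-miR-204-5p: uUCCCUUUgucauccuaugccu
rno-miR-211-5p: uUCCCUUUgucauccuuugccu
rno-miR-204-3p: gCUGGGAAggcaaagggacguu
rno-miR-211-3p: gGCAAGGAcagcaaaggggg

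The 5p arms were identical at 21 of 22 bases, with the single substitution A17U, where the base of rno-miR-204-5p comes first and positions are counted from 1 at the 5′ end. The first 16 bases were the same, so a read that ends before position 17 fits both 5p arms. The seed UCCCUUU was found in 2 of the 724 entries for mature rat miRNAs in the RefSeq table, which are these 5p arms. The 3p arms matched at 14 of 23 aligned columns and carried different seeds, each of them found in 1 of the 724 entries. The hairpins are shown because the reads were assigned to them, with the mature arms in capitals.
Mir204: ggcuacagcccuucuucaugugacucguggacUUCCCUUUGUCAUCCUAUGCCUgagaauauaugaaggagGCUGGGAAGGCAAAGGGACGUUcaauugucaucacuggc
Mir211: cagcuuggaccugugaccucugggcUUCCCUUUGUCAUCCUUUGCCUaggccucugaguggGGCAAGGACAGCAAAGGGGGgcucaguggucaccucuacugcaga

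The aligned hairpins had 66.4% identity over 116 columns, 16 of them with a gap. How reads that fit both genes were counted is not given in the sources used here, and 1 FPKM value covers both arms of a hairpin.

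The deposited values hold no counts, but low FPKM values came in steps that are each worth 1 alignment. At P1 there was 1 step, at P3 to P15 there were 2, and at P21 there were 4. The numbers at P1 and P21 differ from the 2 sequencing rounds stated for every pool, and what each step stands for could not be read from the table. Every one of the 1290 to 1594 low values used from a library was a whole-number sum of its steps. The steps were found from these same values, so this fit is not an independent check. The feature of Mir204 spans 171 bases and that of Mir211 spans 122 bases, so 1 alignment at P1 was worth 21.1 FPKM for Mir204 and 38.7 FPKM for Mir211. This 1.83-fold difference enters any comparison of the paralogs in FPKM. All intervals given here are 95% counting intervals. In libraries with several steps, those of levels, changes and ratios use an effective count below the estimated alignments, because the steps differ in weight. For Mir211 at P15 the effective count was 2911, with 5996 estimated alignments. Variation between animals is not covered, and neither is amplification, since reads copied from 1 molecule count separately. From 289227 alignments at P1 to 1335180 at P21 were estimated for the libraries, of which 39.9% at P3 and 59.8% to 75.5% at the other ages were miRNAs.

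Mir204 was an abundant miRNA at all ages. In the first week its level was 85619 FPKM at P1, 163319 at P3, 148323 at P5 and 127711 at P7. Later it was 197501 FPKM at P10, 251645 at P15 and 250320 at P21. Thus the lowest library was that of P1, a first maximum stood at P3, P7 lay below P3 and P5, and P15 and P21 were the highest. In rising order the ages were P1, P7, P5, P3, P10, P21 and P15, and only the difference between P21 and P15, 0.0076 on the log2 scale (from -0.032 to 0.047), lay within counting error. The highest level was 2.94-fold the lowest. The estimated alignments rose from 4057 at P1 to 32748 at P21, so the counting intervals of this gene were narrow.

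Mir211 was scarce in the first postnatal week and rose late. In the first week its level was 2090.4 FPKM at P1, 5397 at P3, 5703 at P5 and 13414 at P7. Later it was 89610 FPKM at P10, 203804 at P15 and 233594 at P21. In FPKM each library was higher than the one before it, although P3 and P5 were not distinguishable, with a log2 difference of 0.080 (from -0.27 to 0.43) that was below 0 in 3 of the other scalings. The level at P1 was 0.895% of that at P21, which makes a 112-fold range. The early values rest on 54 alignments at P1, 132 at P3, 157 at P5 and 608 at P7, and the late ones on 2400 at P10, 5996 at P15 and 16660 at P21. These estimates for ages with several steps assume that each step gave equal signal. Read as whole alignments of each step, the deposited values at P3 and P5 gave 130 and 164, and without the assumption the number at P21 lies between 5485 and 21887.

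**Figure D1:**
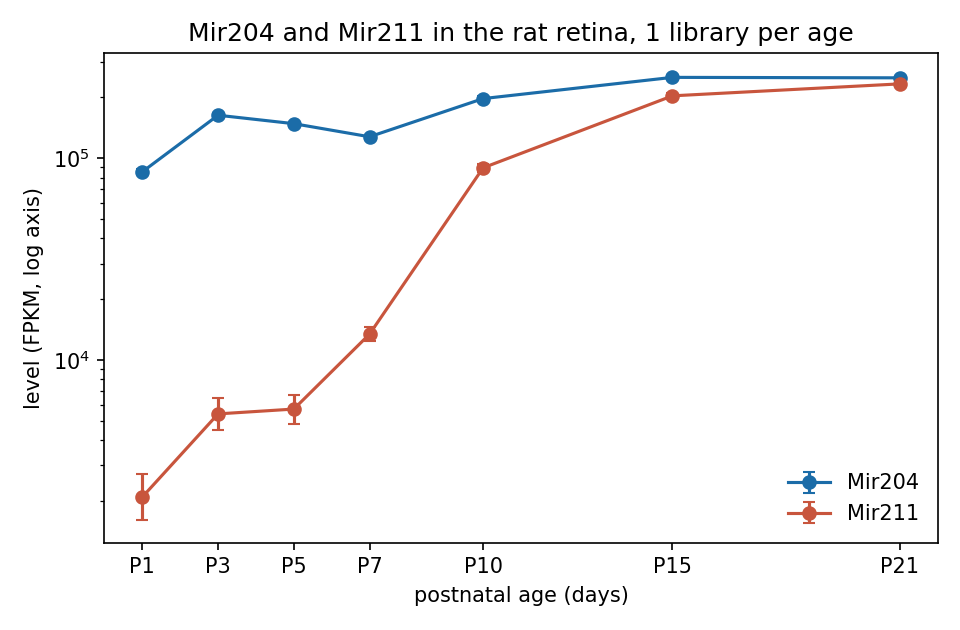
Level of Mir204 (blue) and Mir211 (red) in FPKM on a log axis against postnatal age, 1 library per age, with 95% counting intervals as bars. Mir204 stays between 85619 and 251645 FPKM, and Mir211 climbs from 2090.4 to 233594 FPKM, most steeply between P7 and P10.

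For Mir211 at P3 and P5, 1 division over the 2 steps alone fitted the deposited value, so these libraries could be read as 2 parts. At P3 the parts held 83 and 47 alignments, or 5093 and 5701 FPKM. At P5 they held 119 and 45 alignments, or 6520 and 4886 FPKM. The parts of a library did not differ beyond counting error, with a log2 difference of 0.16 (from -0.35 to 0.68) at P3 and -0.42 (from -0.91 to 0.079) at P5. The values of both ages overlapped, and all 4 lay above the 2090.4 FPKM of P1. The parts carry no labels and were not assigned to sequencing runs. Their FPKM values take the deposited value as the plain mean of the 2 parts, which was not tested. Parts of 1 pool are not replicates of an age. At P7, 4 divisions of the Mir211 value fitted, so it was not divided, and no value of Mir204 could be divided.

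The changes from age to age were taken as differences of log2(FPKM + 1), which understates changes of low values. They were set beside those of the 416 miRNA features with a mean of at least 1000 FPKM, a filter that both paralogs passed. From P1 to P21, Mir204 was higher by 1.55 (from 1.5 to 1.6), or 2.92-fold, and Mir211 by 6.80 (from 6.42 to 7.19). In the deposited values at least a 2-fold rise between these ages was found for both paralogs and for 29.3% of the 416 features, whose median change was -0.10. Mir204 no longer passed 2-fold when scaled to the miRNA total (the summed FPKM of all miRNAs), with 0.92, or as alignments per 1000000 miRNA alignments, with 0.55. By size of the rise Mir211 ranked 9 and Mir204 ranked 93 of 416. All 8 features with a larger rise than Mir211 had under 3 estimated alignments at P1.

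From P1 to P3 both paralogs were higher, Mir204 by 0.93 (from 0.88 to 0.99) and Mir211 by 1.37 (from 0.90 to 1.83). Mir211 passed a 2-fold rise, as did 14.4% of the features, and Mir204 with 1.91-fold did not in the deposited values. Scaled to the miRNA total, Mir204 passed it too, with a log2 change of 1.17 (from 1.12 to 1.23). The intervals of the paralogs overlapped at this step. From P3 to P5 Mir204 was lower by a log2 change of -0.14 (from -0.19 to -0.090), and it lay between -0.43 and -0.12 in all settings. Mir211 had the change of 0.080 given above.

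From P5 to P7 the paralogs differed in their change. Mir211 rose by 1.23 (from 0.97 to 1.5), or 2.35-fold, while 8.65% of the features rose at least 2-fold and their median was -0.29. Mir204 changed by -0.22 (from -0.26 to -0.17) in the deposited values, near that median. The sign for Mir204 depended on the scaling: it was 0.17 with median-of-ratios scaling, 0.24 with TMM scaling and 0.10 as alignments per 1000000 miRNA alignments. The rise of Mir211 lay between 1.23 and 1.69 over all settings.

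The largest step of Mir211 was that from P7 to P10, before the eyes open. It rose by 2.74 (from 2.60 to 2.88), or 6.68-fold, and gained 76196 FPKM. The deposited values gave nearly the largest size of this rise, which lay between 2.10 and 2.74 over all settings. A rise of at least 2-fold at this step was found for 27.9% of the features, and Mir211 ranked 14 of 416 by its size. Mir204 rose by 0.63 (from 0.58 to 0.67), with 0.31 as the median of the features. As alignments per 1000000 miRNA alignments, the change of Mir204 was -0.014 (from -0.058 to 0.031), so its rise at this step was not found under that scaling.

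From P10 to P15 Mir211 gained a further 114194 FPKM, the largest gain of any step in FPKM, although in log2 terms it was smaller than the step before, at 1.19 (from 1.10 to 1.27). Over all settings this log2 change lay between 1.19 and 1.63. Of the features, 8.41% were at least 2-fold higher at P15, and the median was -0.29. Mir204 rose by 0.35 (from 0.30 to 0.40). After P15 both levels changed little in the deposited values, with 0.20 (from 0.14 to 0.26) for Mir211 and -0.0076 (from -0.047 to 0.032) for Mir204. The sign of the last step of Mir211 turned with each of the 4 other scalings, which gave values from -0.29 to -0.045. Under the same 4 scalings Mir204 changed by -0.49 to -0.25, and each of its intervals lay below 0. Counted over the 6 steps in the deposited values, Mir211 was at least 2-fold higher in 4 and Mir204 in 0, and neither fell 2-fold in any. At a single step, 8.41% to 27.9% of the features rose and 9.62% to 26.4% fell at least 2-fold. How many features had 4 such rises, or no such fall, over the 6 steps was not counted.

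**Figure D2:**
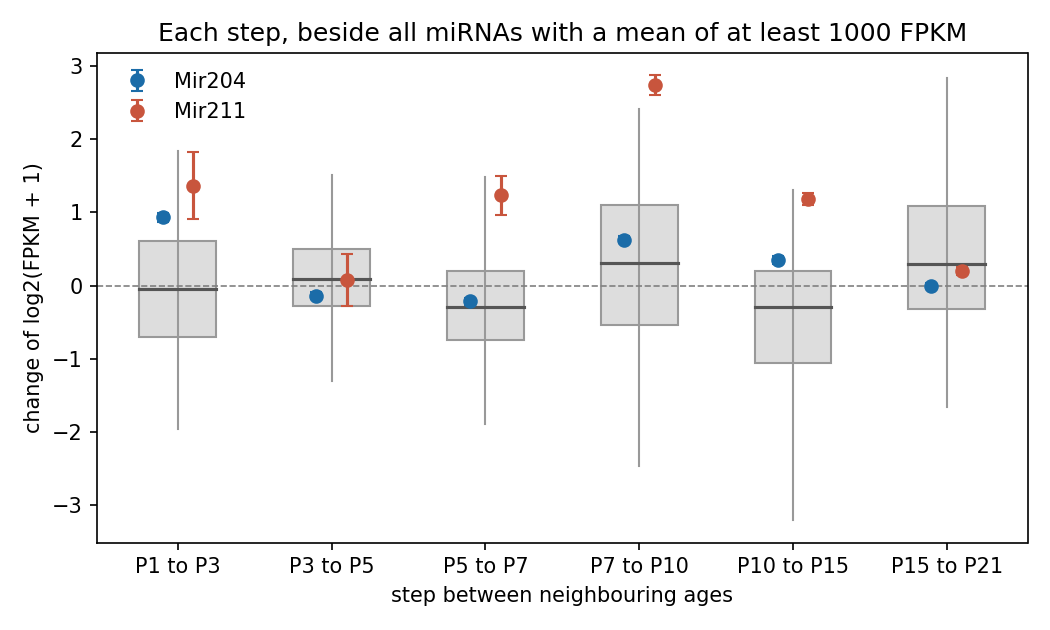
Change of log2(FPKM + 1) at each step between neighbouring ages for Mir204 (blue) and Mir211 (red), with 95% counting intervals. Grey boxes span the lower to the upper quartile of the 416 miRNA features with the median as a line, and grey lines run from the 5th to the 95th percentile. Mir211 lies above the box in 4 of the 6 steps and above the grey line at P7 to P10.

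The ratio of the paralogs within a library does not depend on scaling between libraries. In FPKM, Mir204 was 41.0-fold above Mir211 at P1, 30.3-fold at P3, 26.0-fold at P5 and 9.52-fold at P7. Its lead was 2.2-fold at P10, 1.23-fold at P15 and 1.07-fold at P21. The gap therefore narrowed at each step, beyond counting error only from P5 onwards, and Mir211 never passed Mir204. At P21 the log2 ratio of Mir211 to Mir204 was -0.0998 (from -0.13 to -0.068), which is below 0 by more than counting error. Over the period the log2 ratio changed by 5.26 (from 4.87 to 5.64).

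By steps, the change of this log2 ratio was 0.44 (from -0.032 to 0.90) from P1 to P3 and 0.22 (from -0.14 to 0.58) from P3 to P5, and both intervals include 0. It was 1.45 (from 1.18 to 1.72) from P5 to P7, 2.11 (from 1.97 to 2.25) from P7 to P10, 0.84 (from 0.74 to 0.94) from P10 to P15 and 0.20 (from 0.13 to 0.27) from P15 to P21. Most of the shift between the paralogs was thus found between P5 and P15.

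The size of the remaining gap depended on the division by feature length. In estimated alignments Mir204 was 75.1-fold above Mir211 at P1, 17.5-fold at P7 and 4.04-fold at P10, with a lead of 2.26-fold at P15 and 1.97-fold at P21. The paralogs thus came close to equal in FPKM, whereas by alignments Mir204 kept a nearly 2-fold lead at P21. Mature miRNAs of both genes are of like length, while the features differ in length, so the ratios are given in both units.

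**Figure D3:**
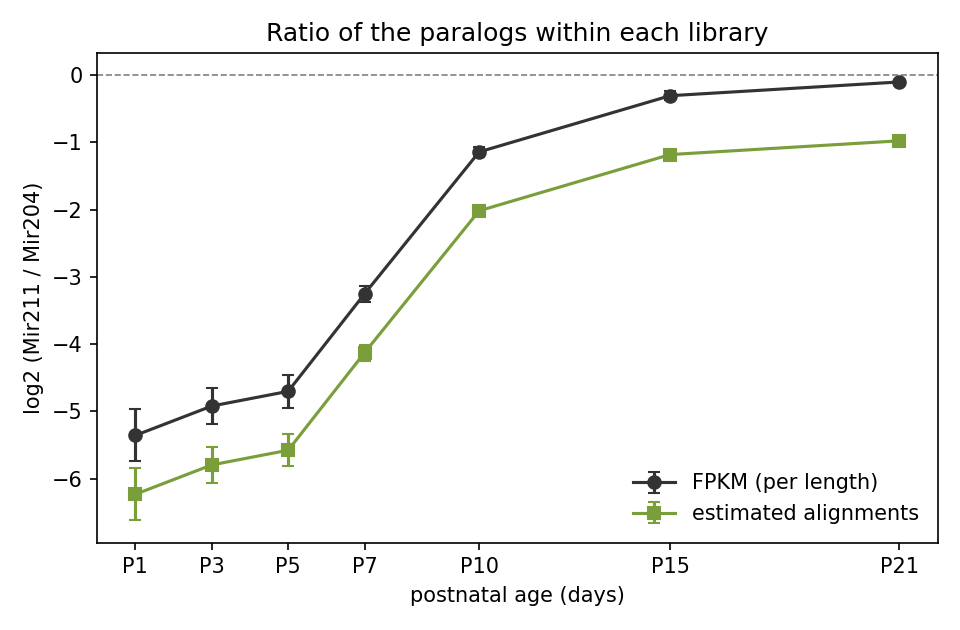
Log2 ratio of Mir211 to Mir204 within each library against postnatal age, in FPKM (black) and in estimated alignments (green), with 95% counting intervals. The dashed line marks equal levels. Both curves rise at every step, beyond counting error only from P5 onwards, and stay below the line. The green curve is the black one lowered by 0.88, the log2 difference in the worth of 1 alignment, so their like shape is set by the calculation. The curves end at -0.0998 in FPKM and -0.98 in alignments.

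Since the 5p arms share their seed, the levels were also summed. The sum was 87709 FPKM at P1, 168716 at P3, 154026 at P5 and 141125 at P7, and it then reached 287111 at P10, 455449 at P15 and 483914 at P21. It was 5.52-fold higher at P21 than at P1, a log2 change of 2.46 (from 2.42 to 2.51), which was 1.84 when scaled to the miRNA total and 1.12 as alignments per 1000000 miRNA alignments. The sum followed Mir204 in the first week, and from P7 onwards both genes contributed. Mir211 made up 2.38% of the summed FPKM at P1, 9.5% at P7 and 31.2% at P10, and this share reached 44.7% at P15 and 48.3% at P21. Of the summed alignments it made up 1.31% at P1 and 33.7% at P21.

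Among all miRNAs of the same library, Mir204 held 2.28% of the estimated alignments at P1, 3.78% at P3, 2.86% at P5 and 3.07% at P7, then 3.04% at P10, 4.06% at P15 and 3.33% at P21. On this scale P3 and P15 were the highest ages, and P7 was not lower than P5. The share of Mir211 was 0.0303% at P1, 0.0680% at P3, 0.0599% at P5 and 0.176% at P7, then 0.751% at P10, 1.79% at P15 and 1.69% at P21. By estimated alignments Mir204 ranked 13 of 571 at P1 and 4 at P15 and P21. Mir211 moved up from rank 199 at P1 to 59 at P7 and 31 at P10, and it held rank 8 at P15 and 10 at P21.

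The miRNA features with the most similar profiles were found by the root mean square difference of log2(FPKM + 1) over the 7 ages, after each profile was centred on its own mean. Among 415 features, the 5 nearest to Mir204 were rno-mir-3543-1 at 0.22, Mir433 at 0.22, Mir3543 at 0.23, Mir127 at 0.23 and Mir376b at 0.29. Mir433, Mir127 and Mir376b are known as members of the imprinted Dlk1-Dio3 miRNA cluster. Their rise from P1 to P21 was 1.60 for Mir433, 1.28 for Mir127 and 0.50 for Mir376b on the log2 scale, compared with 1.55 for Mir204. These features were picked from the same values for a small difference from Mir204, so their modest change is partly set by that choice.

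The nearest profiles lay farther from Mir211 than from Mir204. The measure is not scaled by range, which was 112-fold for Mir211 and 2.94-fold for Mir204, so the distances of the paralogs are not on equal terms. The 5 nearest to Mir211 were AC129244.1 at 1.06, Mir190b at 1.09, Mir129-2 at 1.12, Mir129-1 at 1.14 and Mir3556b at 1.19. Mir129-1 and Mir129-2 carry the neuronal miRNA mir-129 and can share its reads. Mir129-2 rose from 2695 FPKM at P1 to 102536 at P21, and Mir190b from 3643 at P1 to 49524 at P10 before it declined to 35046 at P21. AC129244.1 had 2 alignments in its lowest library. Mir204 ranked 55 and Mir211 ranked 375 of 415 in nearness to the respective paralog, with a root mean square difference of 2.11 between them.

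**Figure D4:**
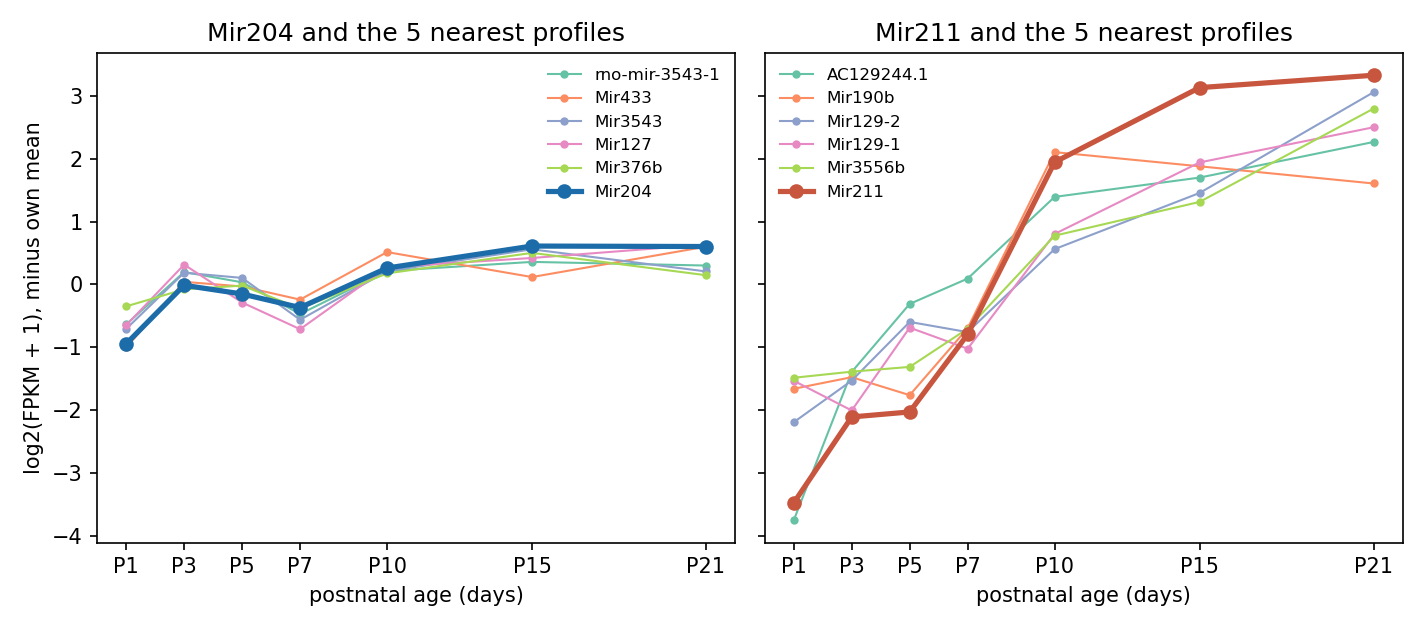
Profiles of log2(FPKM + 1), each minus its own mean over the 7 ages, for Mir204 (left, thick blue) and Mir211 (right, thick red) with the 5 nearest miRNA features as thin lines. The thin lines lie close to Mir204, at 0.22 to 0.29, and farther from Mir211, at 1.06 to 1.19. These distances are not scaled by the range of each profile.

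The levels of other cell types' miRNAs were read beside these results. Of the photoreceptor list (Mir183, Mir96 and Mir182) 2 of 3 were measured (Mir182 was not analysed here), and both were at least 2-fold higher at P21 than at P1. A rise of at least 2-fold between these ages was found for 29.3% of the 416 features. Mir183 had 103203 FPKM at P1 and 448779 at P21, with its maximum of 733716 at P10, and Mir96 was likewise highest at P10 with 281916 FPKM. All 3 loci of the neuronal mir-124 were at least 2-fold higher at P21, with a median log2 change of 3.53, and they carry the same mature form, so their reads cannot be told apart. These retinal miRNAs were thus present in every library, and both photoreceptor miRNAs were highest at P10 whereas the mir-124 loci were highest at P21.

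Since both paralogs are known from pigment epithelium, 4 other miRNAs reported there were examined. Mir187, Mir221 and Mir222 were at least 2-fold higher at P21 than at P1, and Mir184 was at least 2-fold lower. Of the 416 features, 29.3% were at least 2-fold higher and 36.8% at least 2-fold lower between these ages. Mir187 had 571 FPKM at P1, from 6 alignments, 2387 at P7 and 9852 at P21. Mir184 fell from 28786 FPKM at P1 to 456 at P7 and was again high at P21 with 13773, so it did not follow Mir211. Its P7 value rests on an estimated 6.67 alignments. Together the 4 held 1578 alignments per 1000000 miRNA alignments at P1, 367 at P7, 472 at P15 and 1146 at P21. Whether pigment epithelium contributed to the level of Mir204 or Mir211 was not tested.

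Summed by list, the marker miRNAs of other tissues were highest in the P1 and P3 libraries. Per 1000000 miRNA alignments, the 3 measured muscle miRNAs held 1625 at P3 and 987 at P5, and from 50.7 to 163 in the remaining libraries. The 4 measured miRNAs of surface epithelium held 582 at P3, 394 at P5, 348 at P7 and 31.5 at P15, and 1 of them was listed at 0 at P15. The red blood cell miRNAs Mir451a and Mir144 held 780 at P1 and 169 at P3. The first maximum of Mir204 fell in the P3 library, where the muscle and epithelial lists were also highest in sum, and their part in that level was not tested. In FPKM, Mir133b, Mir206, Mir200b and Mir429 were highest at P3, Mir1b and Mir205 at P5, and Mir141 at P7. At P10, P15 and P21, where Mir211 was high, the muscle list held at most 89.9 and the surface epithelium list at most 96.8. The red blood cell list held 367 at P10, 216 at P15 and 314 at P21, above its P3 value.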

How the data were processed

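Small RNA of pooled retinal samples was measured at 7 ages, with 1 value per age. After trimming, the authors mapped reads to noncoding RNAs of Ensembl, built the features with Cufflinks and Cuffmerge, and calculated with Cuffdiff the deposited FPKM values of each feature and age. The submitters' processing notes name Rnor_6.0 and version 2.2.1.3. The treatment of reads that map to several genes and the normalization between libraries are not given in the sources used here. The deposited fold changes and p-values of 21 pairs of ages were not used. Blank rows of the table (933264) were dropped.

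The value of 1 alignment was obtained at P1 for 361 of 724 feature lengths, interpolated for the rest, and the other libraries were expressed in it (relative tolerance 3e-05, low values under 5 steps of P1). Dropping the largest step lowered the share of whole sums to between 19.1% and 81.3%. On simulated data with the same features, steps were recovered in 7 of 7 libraries, and the true P1 to P21 change lay in the interval for 96.0% of 200 changed features. The simulation drew counting error alone, with equal signal from each step, so it cannot check these 2 assumptions of the intervals. Its changes were smaller than that of Mir211, and features with few alignments at P1 were left out.

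The members, lists and named miRNAs were chosen with earlier results of these data known. Named miRNAs were the paralogs, the 5 nearest profiles of each and the members of the cell type lists. Alternatives were median-of-ratios scaling, TMM scaling, scaling to the summed FPKM of all miRNAs (the miRNA total), pseudocounts of 0.1 and 10 in place of 1, no filter on low values, and estimated alignments without division by length. Levels per 1000000 miRNA alignments, and the other scalings of the sum, were added after the data were seen. Calculations used Python 3.11.15, numpy 2.4.6, pandas 2.3.3, scipy 1.17.1 and biopython 1.88, with matplotlib 3.10.9.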

Additional observations from a re-analysis of the deposited data

How the results depend on the processing

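No setting changed the direction from P1 to P21, but the size depended on the scaling, and Mir204 lost its 2-fold call under both scalings by miRNA. Scaled to the miRNA total, the log2 change was 0.92 for Mir204, 6.18 for Mir211 and 1.84 for their sum. As alignments per 1000000 miRNA alignments it was 0.55, 5.80 and 1.12. Median-of-ratios scaling gave 1.63 for Mir204 and 2.54 for the sum, and TMM scaling 1.69 and 2.61.

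Directions of some steps turned. From P5 to P7 the change of Mir204 was 0.17 with median-of-ratios scaling, 0.24 with TMM and 0.10 per 1000000 miRNA alignments, and that of the sum 0.26, 0.33 and 0.15. From P7 to P10 it was -0.014 for Mir204 per 1000000 miRNA alignments. From P15 to P21 the change of Mir211 was -0.29 scaled to the miRNA total, -0.045 with median-of-ratios scaling, -0.16 with TMM and -0.082 per 1000000 miRNA alignments, and that of the sum -0.40, -0.15, -0.27 and -0.22. Mir204 kept its sign at this step, with -0.49, -0.25, -0.36 and -0.29 under the same scalings. The cause of these differences was not tested. The miRNA total moves earlier libraries relative to P21 by 0.24 to 0.87 on the log2 scale. With no filter, 13.7% of the miRNA features rose at least 2-fold from P5 to P7, and scaled to the miRNA total 16.3% did so from P7 to P10. Pseudocounts of 0.1 and 10 moved no change or ratio beyond its counting interval. The 5 nearest profiles of each paralog stayed the same without the filter, and scaling cannot change them. With 1 library per age, no value has a replicate, and 54 alignments limit Mir211 at P1.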
